A study of Rattus norvegicus with 15 samples.

Results

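Rat bone marrow mesenchymal stem cells kept in adipogenic differentiation medium with aspirin (Adi_ASA, 3 libraries) were compared with the same cells in that medium without it (Adi, 3 libraries). All rows of the count table with an Ensembl rat gene identifier and enough reads to be tested were taken, which gave 14210 of 32883 such rows, out of 34480 rows in the whole table. Of the 18673 identifiers left out, 10904 had 0 counts in all 15 libraries of the series, and the other 7769 had a median of 7 reads summed over those libraries. Their sums reached 2675 reads, while the smallest sum among identifiers tested was 41. The filter covered all groups of the series, so some genes tested had 0 counts in every Adi and Adi_ASA library. The cells came from the marrow of Sprague-Dawley rats (an outbred stock) and were grown to confluence in growth medium before treatment. The rest of the series comprised untreated cells (Control), cells in osteogenic differentiation medium (Ost) and cells in osteogenic medium with aspirin (Ost_ASA), with 3 libraries each. The aspirin dose, the composition of the media, the time in culture and the age of the animals are not given in these sources. The labels do not say if the 3 replicates of a group came from different rats or cultures, and p-values thus reflect only how far these libraries vary, which may be technical.

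Marrow mesenchymal stem cells are adherent stromal cells that can give rise to fat cells, bone-forming cells and cartilage cells. Conversion to fat cells is driven by the transcription factors PPARγ and C/EBPα, which switch on genes for fatty acid uptake, lipid storage and fat cell hormones. Aspirin (acetylsalicylic acid, ASA in the group names) acetylates the cyclooxygenases and thereby blocks the first committed step of prostaglandin synthesis. The count table lists identifiers without gene symbols, and 0 of its rows could be paired with one through the gene table used as a reference. The genes below are therefore given by Ensembl identifier, and their products are not stated. For the same reason the levels of fat cell, bone cell, stromal and cyclooxygenase genes were not analysed here, and the labelled cell type was not checked against its markers.

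The 6 libraries held 18646021 to 20944009 counted reads. Replicates within both groups differed beyond sampling noise, with a chi-square per degree of freedom of 5.41 to 13.0 for each pair. The TMM factors, which correct library size for differences in composition, were 0.911 to 0.945 in Adi and 0.963 to 0.970 in Adi_ASA and so did not overlap. Levels are given as CPM, counts scaled to a common library size, with these factors applied.

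With aspirin, 377 genes rose and 275 fell, which made 652 of the 14210 genes (edgeR quasi-likelihood test, Benjamini-Hochberg adjusted p under 0.05). This is 4.59% of the genes, or 2.65% higher and 1.94% lower. With RLE factors in place of TMM factors, 653 genes were called, of which 344 rose and 309 fell. In cultures of this kind, fewer cells of a type and less RNA per cell cannot be told apart. Most of the changes were small. The median log2 fold change was 0.42 for the genes that rose and -0.33 for those that fell, against 0.00 over all genes tested. The sets were chosen by direction, so medians on either side of that value were fixed by the selection. Among the rises, 96 were under 1.25-fold, 176 were 1.25 to 1.5-fold, 75 were 1.5 to 2-fold and 30 were at least 2-fold. Among the falls the corresponding counts were 130, 101, 29 and 15. At the threshold, the called gene with the largest adjusted p had 0.0496 and a log2 fold change of -0.18, and the uncalled gene with the smallest had 0.0503 and 0.19 (edgeR).

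The share of genes called went up with their level. It was 0.986% of the 1725 genes below 1 CPM, 2.67% of 3784 genes from 1 to 10 CPM, 5.21% of 6908 genes from 10 to 100 CPM and 9.70% of 1793 genes above 100 CPM, by the mean of the 6 libraries. The median absolute log2 fold changes of the called genes in these 4 classes were 1.69, 0.71, 0.36 and 0.32, and those of all genes tested were 0.38, 0.17, 0.08 and 0.08. Genes with few reads pass the test only with large folds, so the sizes of the called changes by level are set in part by the threshold. The genes that fell were the more abundant, with a median of 63.9 CPM against 38.6 CPM for those that rose and 18.2 CPM for all genes tested. The genes that fell made up 12.5% of the summed CPM in Adi and 10.3% in Adi_ASA. A single gene, singled out after its values were seen and not identified here, held 6.48% to 6.82% of the counts of the Adi libraries and 5.50% to 6.00% of those of the Adi_ASA libraries, and so a large part of that sum. Its log2 fold change was -0.29 (SE 0.08, edgeR adjusted p = 0.0371), and it was called under 8 of the 13 alternatives run, with adjusted p of up to 0.163. The genes that rose made up 2.69% of the summed CPM in Adi and 3.76% in Adi_ASA. Since both sets were chosen by direction, the way in which their shares of the sum moved follows from the selection.

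**Figure D1:**
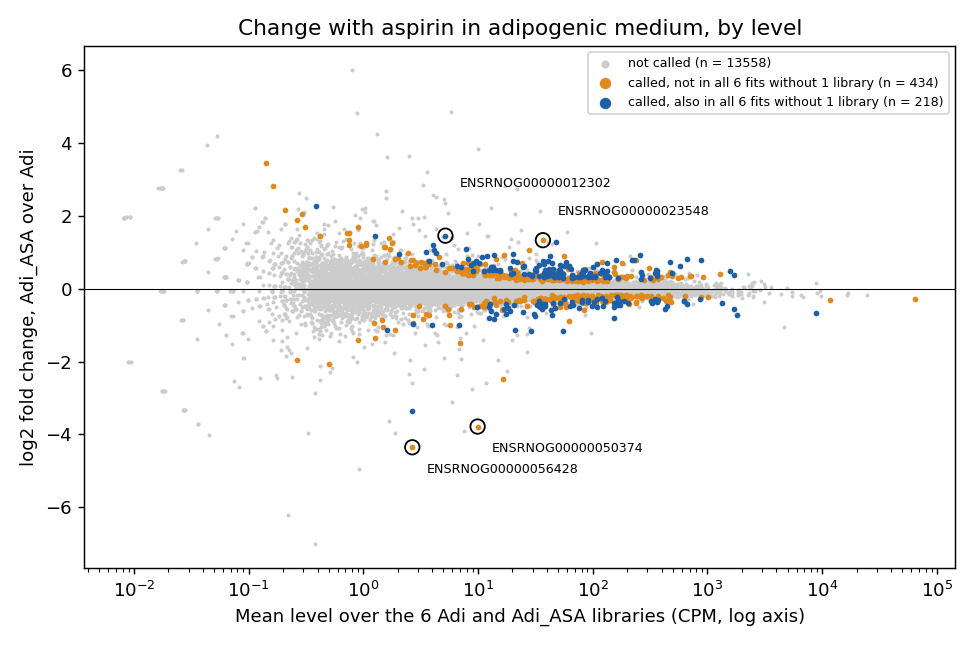
Each point is 1 of the 14210 genes tested, with its mean level in the 6 Adi and Adi_ASA libraries in CPM on a logarithmic horizontal axis and its log2 fold change (Adi_ASA over Adi) on the vertical axis. Genes with a mean of 0 CPM in these libraries cannot be drawn on this axis. Grey points were not called, orange points were called but not in every fit without 1 library, and the 218 blue points were also called in all 6 of those fits. Circles mark the 4 genes named in the text.

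Most called changes of at least 2-fold were in genes with few reads, where the test passes large folds only. Of the 30 genes at least 2-fold higher, 23 stayed below 5 CPM in both group means, and so did 8 of the 15 at least 2-fold lower. The remaining 14 genes, 7 in each direction, had no overlap between the 3 Adi and the 3 Adi_ASA libraries. Another 63 genes with at least 5 CPM in the higher group differed at least 2-fold between the group means of the fit without passing the test, 36 with a positive and 27 with a negative difference. In 52 of these 63 the libraries of both groups overlapped. In 26 of the 63, a single library held over 60% of the summed CPM of the higher group, a limit chosen after seeing the data. That library was Adi_ASA replicate 1 in 8 genes, Adi replicate 1 in 5, Adi_ASA replicate 3 in 5, Adi replicate 3 in 4, Adi replicate 2 in 3 and Adi_ASA replicate 2 in 1. No called gene of this size and level had 1 library above that limit, and the highest share among them was 58.2%. The test weighs the spread within groups, so genes carried by 1 library tend to go uncalled. This contrast is thus largely set by the call itself.

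The 4 genes named here are the largest rises and falls among called genes whose 2 groups did not overlap and that had at least 5 CPM in the higher group. These conditions were met by 333 genes that rose and 256 that fell.

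ENSRNOG00000012302 had 2.59, 3.68 and 2.08 CPM in Adi replicates 1, 2 and 3, and 7.07, 7.39 and 8.41 CPM in Adi_ASA replicates 1, 2 and 3. The lowest library with aspirin lay well above the highest without it. The means were 2.78 ± 0.819 CPM (SD, n = 3) and 7.63 ± 0.700 CPM, a log2 fold change of 1.46 (SE 0.14, edgeR adjusted p = 2.92e-06). This call was kept in all 6 fits without 1 library. The log2 fold change was lowest without Adi replicate 3, at 1.28, and highest without Adi replicate 2, at 1.71. In Control the gene was lower still, at 1.40 to 1.74 CPM. In osteogenic medium it was far higher, at 64.1 to 71.4 CPM without aspirin and 61.3 to 65.5 CPM with it, and the groups overlapped there in part, since 2 of the 3 Ost_ASA libraries lay below all Ost libraries (log2 fold change -0.07, SE 0.09, edgeR adjusted p = 0.80).

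ENSRNOG00000023548 had 28.0, 22.3 and 12.7 CPM in Adi replicates 1, 2 and 3, and 47.9, 43.8 and 66.3 CPM in Adi_ASA. The groups did not overlap, but Adi replicate 3 was the lowest of its group and Adi_ASA replicate 3 the highest of its own. The log2 fold change was 1.33 (SE 0.27, edgeR adjusted p = 0.0207). It was 1.07 without Adi replicate 3 (adjusted p = 0.0391) and 1.13 without Adi_ASA replicate 3, where the call was lost (edgeR adjusted p = 0.0866). The call was also lost without Adi replicate 2 (log2 fold change 1.38, edgeR adjusted p = 0.0637) and when only the 6 Adi and Adi_ASA libraries were fitted (edgeR adjusted p = 0.159). Control cells had 461 to 536 CPM, so that all adipogenic libraries, with or without aspirin, lay below every Control library. Ost libraries had 59.0 to 69.8 CPM and Ost_ASA libraries 61.6 to 90.1 CPM.

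Both named falls concerned genes with a wide spread among the Adi libraries. ENSRNOG00000056428 had 6.41, 1.87 and 7.03 CPM in Adi and 0.390, 0.0985 and 0.258 CPM in Adi_ASA. The Adi_ASA values rest on 7, 2 and 5 reads and were also spread widely for their level. Adi replicate 2 lay far below the other Adi libraries and still above all Adi_ASA libraries. The log2 fold change was -4.35 (SE 1.00, edgeR adjusted p = 0.0391). Leaving out Adi replicate 2 gave -4.75 and kept the call (edgeR adjusted p = 0.0365). Leaving out any of the other 5 libraries gave -4.80 to -3.96 and lost it, with adjusted p of 0.0875 to 0.150 (edgeR). The other groups without aspirin were also spread widely, with 1.82 to 6.17 CPM in Control and 0.488 to 5.87 CPM in Ost. In Ost_ASA it was at 0.219 to 0.401 CPM, below all Ost libraries, but this difference did not pass the test (log2 fold change -3.28, SE 0.96, edgeR adjusted p = 0.113). The lack of overlap there rests on 11 reads in Ost replicate 3 against 9 in Ost_ASA replicate 1.

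ENSRNOG00000050374 had 7.99, 29.9 and 17.6 CPM in Adi and 1.56, 1.18 and 1.29 CPM in Adi_ASA. The 3 aspirin libraries lay close together, and the Adi libraries were spread widely above them. The log2 fold change was -3.78 (SE 0.88, edgeR adjusted p = 0.0401). Without Adi replicate 1, the lowest of its group, it was -4.14 and kept the call (edgeR adjusted p = 0.0388). Without Adi replicate 2, the highest, it was -3.25 and lost it (edgeR adjusted p = 0.116), as did each of the other 4 fits without 1 library, with adjusted p of up to 0.155. Control libraries had 1.53 to 3.64 CPM. In osteogenic medium the groups overlapped, with 2.51 to 16.6 CPM in Ost and 1.05 to 4.28 CPM in Ost_ASA (log2 fold change -1.74, SE 0.81, edgeR adjusted p = 0.357).

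**Figure D2:**
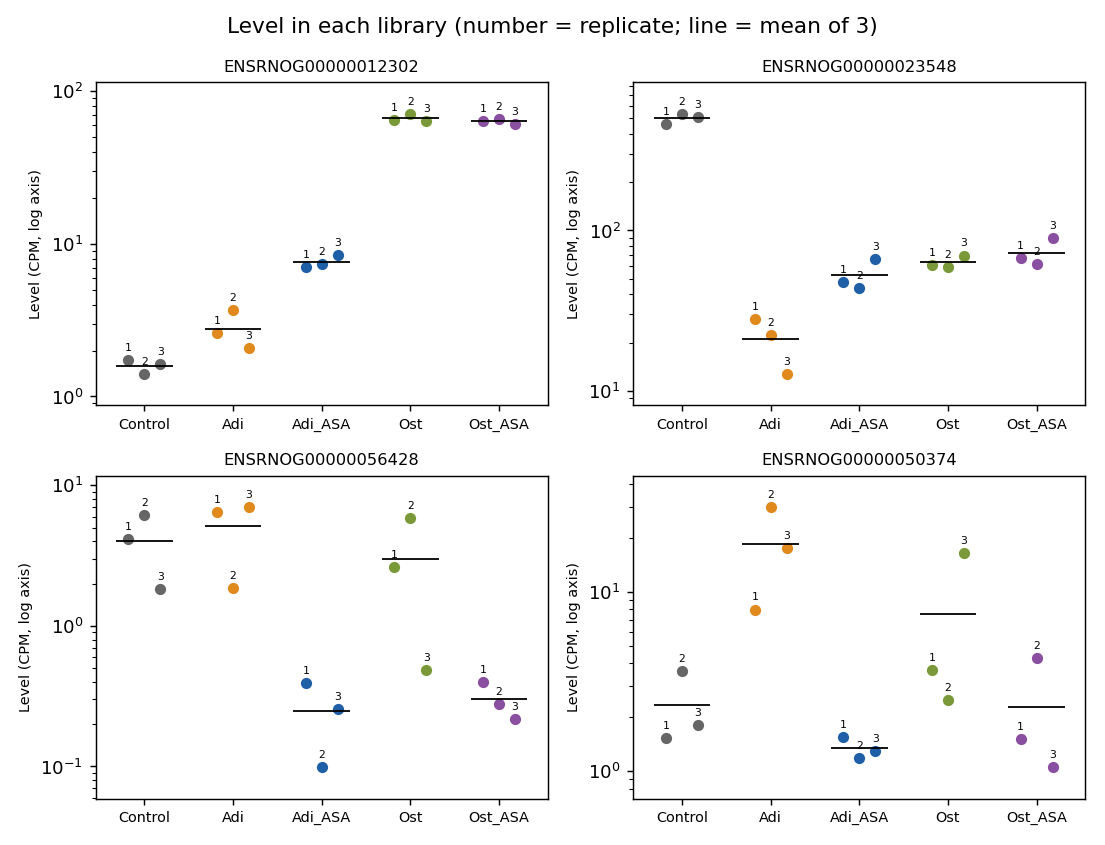
Each panel shows 1 gene, with the level of each of the 15 libraries in CPM on a logarithmic axis, the 5 groups side by side, the replicate number above each point and a line at the mean of 3 libraries. Adi and Adi_ASA do not overlap in any panel, while the Adi libraries of ENSRNOG00000056428 (1.87 to 7.03 CPM) and ENSRNOG00000050374 (7.99 to 29.9 CPM) are widely spread. On this axis the Adi_ASA libraries of ENSRNOG00000056428 (0.0985 to 0.390 CPM) are widely spread too.

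The dependence of the calls on single libraries was then measured over all 652 genes by fitting the model without each of the 6 libraries. Any such fit has fewer libraries to test with. With Adi replicate 1 left out, 514 genes were called. This number was 387 and 398 with Adi replicates 2 and 3 left out, and 410, 402 and 279 with Adi_ASA replicates 1, 2 and 3 left out. Of the 652 calls, 67.8% were kept without Adi replicate 1, 53.7% without Adi replicate 2, 54.4% without Adi replicate 3, 58.3% without Adi_ASA replicate 1, 58.3% without Adi_ASA replicate 2 and 41.4% without Adi_ASA replicate 3. Adi_ASA replicate 3 was thus the library whose absence removed the most calls, 382 of 652. New calls, not made with all libraries, numbered 72 without Adi replicate 1 and 9 to 43 in the other fits.

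The share of calls kept was then taken for rises and falls separately. Without Adi replicate 3, 232 of the 377 rises (61.5%) and 123 of the 275 falls (44.7%) were kept. Without Adi_ASA replicate 3 these counts were 174 (46.2%) and 96 (34.9%). The shares were 64.5% of rises and 49.8% of falls without Adi_ASA replicate 1, and 64.2% and 50.2% without Adi_ASA replicate 2. With Adi replicate 1 left out, 67.1% of rises and 68.7% of falls were kept, and with Adi replicate 2 left out, 52.8% and 54.9%. The share kept was thus higher for rises in 4 of the 6 fits and higher for falls in those without Adi replicates 1 and 2. Whether the directions differ was not tested. The share of rises among the calls was 57.8% with all libraries, 67.8% without Adi replicate 3 and 55.0% to 64.5% in the other fits without 1 library. It was 52.7% with RLE factors, 55.5% with upper quartile factors and 50.7% with DESeq2.

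**Figure D3:**
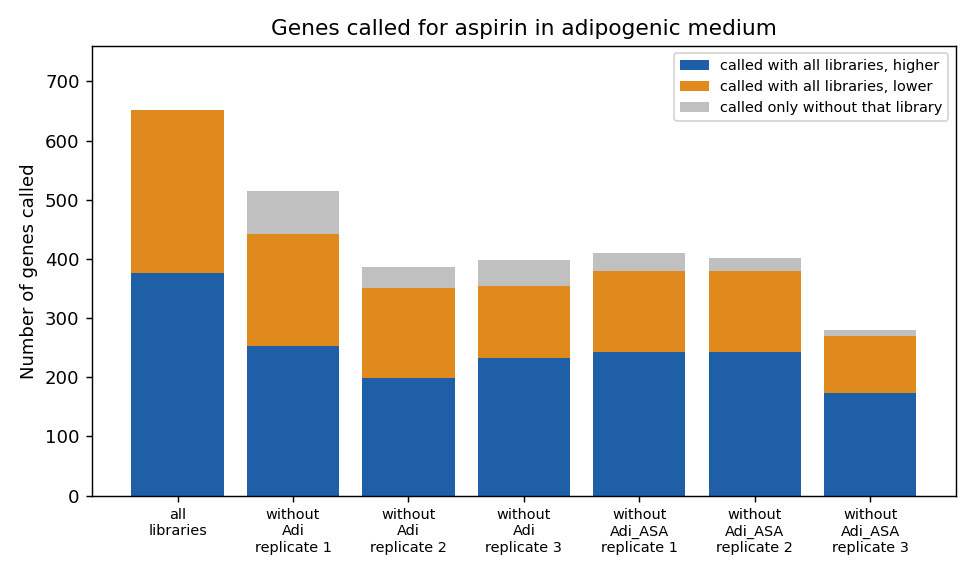
Bars give the number of genes called with all libraries and in each fit without 1 library. Blue and orange parts are genes already called with all libraries, higher or lower in Adi_ASA, and grey parts are genes called only in that fit. The bar without Adi_ASA replicate 3 is the shortest, at 279 genes.

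Of the 652 called genes, 218 (33.4%) kept the call in all 6 fits, 140 higher and 78 lower, or 37.1% of the rises and 28.4% of the falls. Another 55 genes, 24 higher and 31 lower, kept it in none. The most common outcome short of all 6 was a single fit, with 140 genes. Genes kept in all 6 had a median absolute log2 fold change of 0.48 and a median adjusted p of 0.00202 (edgeR), against 0.27 and 0.0433 for genes kept in none. Genes close to the threshold with all libraries lose the call most easily, so this contrast largely restates the threshold. For 35 genes the call was lost in 1 fit alone, which was the one without Adi_ASA replicate 3 for 18 of them and without Adi replicate 2 for 6. The calls of large changes were compared with those of small ones. All 6 fits kept 8 of the 30 genes at least 2-fold higher and 132 of the 347 that rose by less. They kept 5 of the 15 genes at least 2-fold lower and 73 of the 260 that fell by less. Among the 14 genes with at least 2-fold changes and at least 5 CPM, 5 of 7 rises and 3 of 7 falls were kept. Under all 13 alternatives run, 206 genes kept the call, 132 higher and 74 lower.

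**Figure D4:**
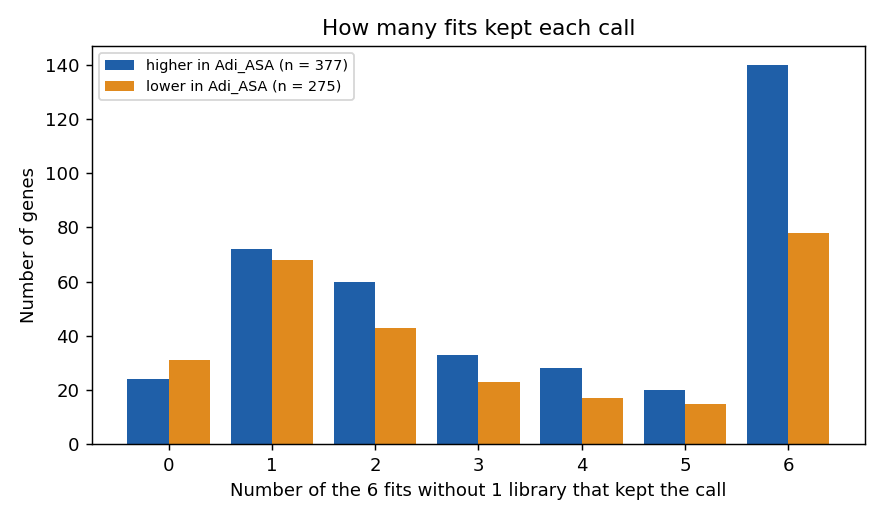
Bars give the number of genes, higher (blue, 377) or lower (orange, 275) in Adi_ASA, by how many of the 6 fits without 1 library kept the call. The tallest bars stand at 6 fits, with 140 rises and 78 falls, and the next at 1 fit, with 72 and 68.

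The sizes of the changes moved less than the calls. The median log2 fold change of the 377 rises was 0.40 to 0.44 in the 6 fits and that of the 275 falls -0.35 to -0.31. Only 2 rises and 1 fall moved by over 1.5-fold without Adi replicate 2, 1 rise did so without Adi replicate 3, and no called gene did so in the other 4 fits. Each of these fits shares all but 1 library with the fit that selected the genes. Little movement is therefore built in, and the steady sizes are no separate support for them. The 3 Adi and 3 Adi_ASA libraries overlapped in 2 of the 377 rises and 2 of the 275 falls. With 3 libraries a group, passing the test nearly requires groups that do not overlap, so this count is no sign of stability. Over all genes tested, 24.2% had groups without overlap, 12.6% with Adi_ASA higher and 11.6% with it lower.

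The spread within groups was compared next. The median SD of log2 CPM over all genes tested was 0.110 in Adi and 0.0939 in Adi_ASA, and it was larger in Adi for 57.3% of genes. For the genes that rose the medians were 0.120 and 0.0816, with the larger SD in Adi for 65.5% of them. For the genes that fell they were 0.0802 and 0.0710, with the larger SD in Adi for 165 of 275. Adi replicate 3 was the library farthest from the mean of its own group for 123 of the 377 rises (32.6%), against 19.5% of all genes tested and 19.6% of the falls. No other library held a share among the rises that exceeded its share among all genes by as much, with the next being Adi_ASA replicate 3 at 15.9% against 13.7%. These shares are descriptions, since genes were called partly for their spread.

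**Figure D5:**
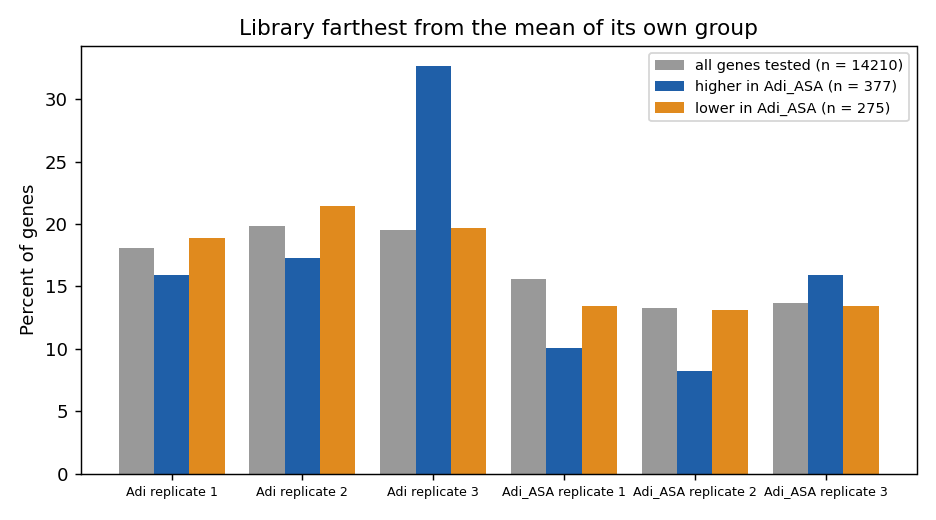
For each of the 6 libraries, bars give the percentage of genes for which that library lay farthest from the mean of its own group on the log2 CPM scale, over all genes tested (grey), those higher in Adi_ASA (blue) and those lower (orange). The blue bar of Adi replicate 3, at 32.6%, stands above its grey bar at 19.5%.

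The same genes were looked up in osteogenic medium, where the aspirin comparison uses none of the adipogenic libraries, although 1 estimate of spread per gene, from all 15 libraries, served both comparisons. Of the 377 rises, 230 had a positive and 142 a negative log2 fold change in Ost_ASA relative to Ost, or 61.0% positive, against 50.3% of all genes tested. Their median was 0.05, against 0.42 in adipogenic medium. The 275 falls had 129 positive and 146 negative values, or 46.9% positive, with a median of -0.01 against -0.33. Of the rises, 31 also rose and 20 fell in osteogenic medium (edgeR adjusted p under 0.05), and of the falls 18 fell and 17 rose. In that comparison 3.78% of all genes tested were called, 2.41% higher and 1.37% lower. The rises and falls were more abundant than all genes tested, and in adipogenic medium abundant genes were called more often. Their counts in osteogenic medium were not compared with those of genes of like level. Among the named genes, a test of whether aspirin acted unequally in the 2 media was passed by ENSRNOG00000012302 (1.53 on the log2 scale, adipogenic minus osteogenic, SE 0.17, edgeR adjusted p = 2.66e-05). It was not passed by ENSRNOG00000023548 (1.13, SE 0.36, adjusted p = 0.163), ENSRNOG00000056428 (-1.08, SE 1.52, adjusted p = 0.842) or ENSRNOG00000050374 (-2.04, SE 1.18, adjusted p = 0.516). Over all genes tested, this inequality was called for 428, or 3.01%. ENSRNOG00000012302 was named for its rise in adipogenic medium, and its means were 2.78 CPM in Adi and 66.9 CPM in Ost. The test compares ratios, so it does not say whether changes in CPM differed between the media.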

How the data were processed

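RNA sequencing of 15 libraries in 5 groups of 3 was deposited by the authors as 1 table of raw counts, whole numbers of reads per gene and library without normalization. The submitters' processing notes name the build Rnor_6.0 and the tools DESeq 1.18.0, HTSeq 0.9.1 and HISAT2 2.0.4. The role of each tool, strandedness and annotation are not stated there, so values of overlapping or near-identical genes are uncertain. Each column name matched 1 sample title.

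The test was that of edgeR 4.0.16 under R 4.3.3 (filterByExpr over the 5 groups, TMM, robust glmQLFit and glmQLFTest, all 15 libraries in 1 model of group means). Adjustment covered the 15543 rows kept, of which the 1333 without an Ensembl identifier (23 called) are not described. SE is the log2 fold change divided by the square root of F. Log2 CPM used a prior count of 2. DESeq2 1.42.0, RLE and upper quartile factors, 2 other filters, 6 libraries alone, a replicate block and fits without each library were alternatives. The members and gene lists were chosen with earlier results of these data known. The lists needed symbols and could not be used, and the naming rule asked for up to 12 genes with symbols in each direction and otherwise for 2 identifiers. In simulated counts for Adi_ASA versus Adi (15396 genes), the test recovered 14 of 50 genes given a 1.25-fold change, 24 of 50 at 1.5-fold, 42 of 50 at 2-fold and 46 of 50 at 4-fold, with 5 false calls. The changed genes excluded those at the lowest levels, and the counts were drawn from the spread that the model itself had fitted. Recovery and false calls in the real data may therefore differ.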

Additional observations from a re-analysis of the deposited data

Results flagged for a closer look

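The effect of aspirin on ENSRNOG00000012302 differed between the media by 1.53 on the log2 scale, adipogenic minus osteogenic, by the edgeR test of the difference itself (adjusted p = 2.66e-05). The gene was named for a rise in adipogenic medium without overlap of the groups, so its selection may have enlarged the adipogenic part of the difference. In osteogenic medium the log2 fold change was -0.07 (SE 0.09). The level of the gene was far higher there, and the test compares ratios, not changes in CPM. The difference passed the test under all 18 alternatives run for it, with values of 1.36 to 1.79.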

How the results depend on the processing

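The count of genes changed by aspirin in adipogenic medium was 550 to 834 under the 7 alternatives that kept all libraries of both groups, with 550 under the replicate block and 834 with DESeq2. Without 1 library it was 279 to 514, with 180 to 301 higher and 99 to 213 lower. Fewer libraries enter these fits. The number of genes whose aspirin effect differed between the media was 428. It was 617 with DESeq2, 285 to 418 without 1 Adi or Adi_ASA library, and 317 to 403 without 1 Ost or Ost_ASA library, fits that were added after seeing the data. The lowest, 285, was without Adi_ASA replicate 3. The replicate numbers gave no sign of pairing the libraries (correlation of deviations -0.07 to 0.08 over the 3 same-numbered pairs of Adi and Adi_ASA). Pairs of these groups with different numbers had -0.06 to 0.14. Such values cannot show whether same-numbered libraries share a rat or culture. With the replicate block the calls of ENSRNOG00000056428 and ENSRNOG00000050374 were lost (edgeR adjusted p = 0.0582 and 0.0591), and those of ENSRNOG00000012302 and ENSRNOG00000023548 were kept. The calls of these 4 genes were kept under 6, 5, 13 and 10 of the 13 alternatives. With no filter on low counts the 2 falls also lost theirs (edgeR adjusted p = 0.0515 and 0.0521). No alternative reversed a named gene. The difference between media for ENSRNOG00000023548 passed the test with DESeq2 alone (adjusted p = 0.0492).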
